A study of Homo sapiens with 21 samples.

Results

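NKX2-1, PAX8, SOX17, WT1, EMX2, MECOM, GATA4, GATA6, KLF5 and SOX9 are transcription factor genes that mark epithelia of the lung, the pancreas and the female reproductive tract. They were taken by name: the Ensembl identifiers in the deposited counts were matched to these symbols, and all 10 were found among the 53515 genes counted. The counts come from mRNA sequencing of 21 libraries from 17 human cancer cell lines, of which 7 were parental and 10 had been made resistant to a drug by long exposure to rising doses. The study asked whether such resistance comes with epigenetic changes and a shift from an epithelial to a mesenchymal state. The comparison made here asks which parental cell lines express each of the 10 genes and whether the resistant cell lines derived from them keep it.

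HepG2, from a liver cancer, was the parental cell line of HepG2S1 and HepG2S3, which resist sorafenib. PancVB, from a pancreatic adenocarcinoma, was used to derive PancB1Q and PancB1V under 5-fluorouracil. HCC4006P1 and HCC4006P2 are separate stocks of the lung adenocarcinoma cell line HCC4006, and gave rise to the erlotinib-resistant HCC4006ER and the gefitinib-resistant HCC4006GR. HCC827P, a second lung adenocarcinoma cell line, gave rise to the gefitinib-resistant HCC827GR. UWB1.289, an ovarian carcinoma cell line, was the parental cell line of U10 and U100, which resist olaparib, and IGROV-1, also ovarian, gave IGROV-1/CDDP, which resists cisplatin. Parental cell lines were labelled as sensitive and without a drug. The labels give no genotype, no dose and no duration of exposure, and whether a resistant cell line is 1 clone was not given in the sources used here. A second library exists for HepG2, HepG2S3, HCC4006P1 and HCC4006ER, so only the comparisons HepG2S3 against HepG2 and HCC4006ER against HCC4006P1 have 2 libraries on each side, and the differences in the other 8 pairs have no replicate check. HepG2S1 and HepG2S3 are compared with the same HepG2 libraries, PancB1Q and PancB1V with the same PancVB library, and U10 and U100 with the same UWB1.289 library.

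A lineage transcription factor binds regulatory DNA of the genes that give a tissue its identity, and carcinomas often go on expressing the factors of the epithelium they came from. NKX2-1 drives lung and thyroid development, while PAX8, SOX17, WT1, EMX2 and MECOM are expressed in the Müllerian duct or its derivatives and several are used to recognise ovarian carcinoma. GATA4 and GATA6 are paralogous zinc finger factors of the endoderm that gives rise to liver, pancreas and lung, KLF5 is a zinc finger factor of proliferating epithelia, and SOX9 marks duct and progenitor cells of liver and pancreas.

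The libraries held 9851195 to 36639473 counts on genes, with a median of 19498932. Levels are given as CPM, the count of a gene scaled to a common library total, and 3 counts, taken as the least detected, came to 0.0819 to 0.305 CPM depending on the library. A range in parentheses after a level is its 95% Wilson interval. These intervals, and those of fold changes derived from them, hold no error but that of counting, because reads copied by PCR do not count separate molecules. A gene is called expressed from 10 CPM, and fold changes of a resistant against its parental cell line are on the scale of log2(CPM + 1), which understates changes of low levels. Over all genes with at least 1 CPM in either cell line of the pair, the median log2 fold change was 0.25 in HepG2S1 and 0.28 in HepG2S3. With TMM scaling the medians were -0.17 and -0.11, and this choice turned the direction of no fold change of at least 1 on the log2 scale. Nothing states that replicate libraries came from separate cultures, so the adjusted p-values below measure the spread between these libraries, which may be technical. In bulk RNA, fewer cells expressing a gene and less of its RNA per cell cannot be told apart.

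Some libraries stand apart and bear on the values below. In HCC4006P1 replicate 1 the counts stop at GARS1 on chromosome 7, and 0 of the 1679 genes checked beyond it had a count. GATA4 and SOX17, on chromosome 8, were therefore read from replicate 2 alone, and the other 8 genes have levels in replicate 1 that are 22.1% higher than they would be with the missing counts. HepG2 expressed 5 of 5 liver markers with a summed level of 25250 CPM, whereas HepG2S1 and HepG2S3 expressed 0 of 5, with sums of 0 and 22.7 CPM and with albumin at 0 and 9.17 CPM. HCC4006P2 expressed 4 of 4 lung markers with a sum of 3265 CPM, whereas HCC4006P1, a stock of the same cell line, expressed 0 of 4 with a sum of 0.396 CPM. HCC827P expressed only NAPSA of the 4, with 35.4 CPM. Of the 4 ovary markers, UWB1.289 expressed MUC16, MSLN and WFDC2 and lacked FOLR1 (0.0860 CPM), while IGROV-1 expressed only FOLR1 (98.0 CPM). These markers were not confined to the ovarian cell lines. HCC827P had 618 CPM of MUC16, against 103 CPM in UWB1.289. HepG2S3 had 351 CPM of MSLN, against 61.3 CPM in UWB1.289, and HCC4006P2 expressed 3 of the 4 markers. PancVB expressed KRT7 and KRT19 of the 4 duct markers, had CFTR and S100P at 0 CPM, and shared both keratins with most other cell lines. The cause of these differences was not tested. Whether these libraries hold the cell lines that their labels name was not tested either, so a gene that is lower or kept in the HepG2 and HCC4006 families is so against the library labelled as its parent.

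**Figure D1:**
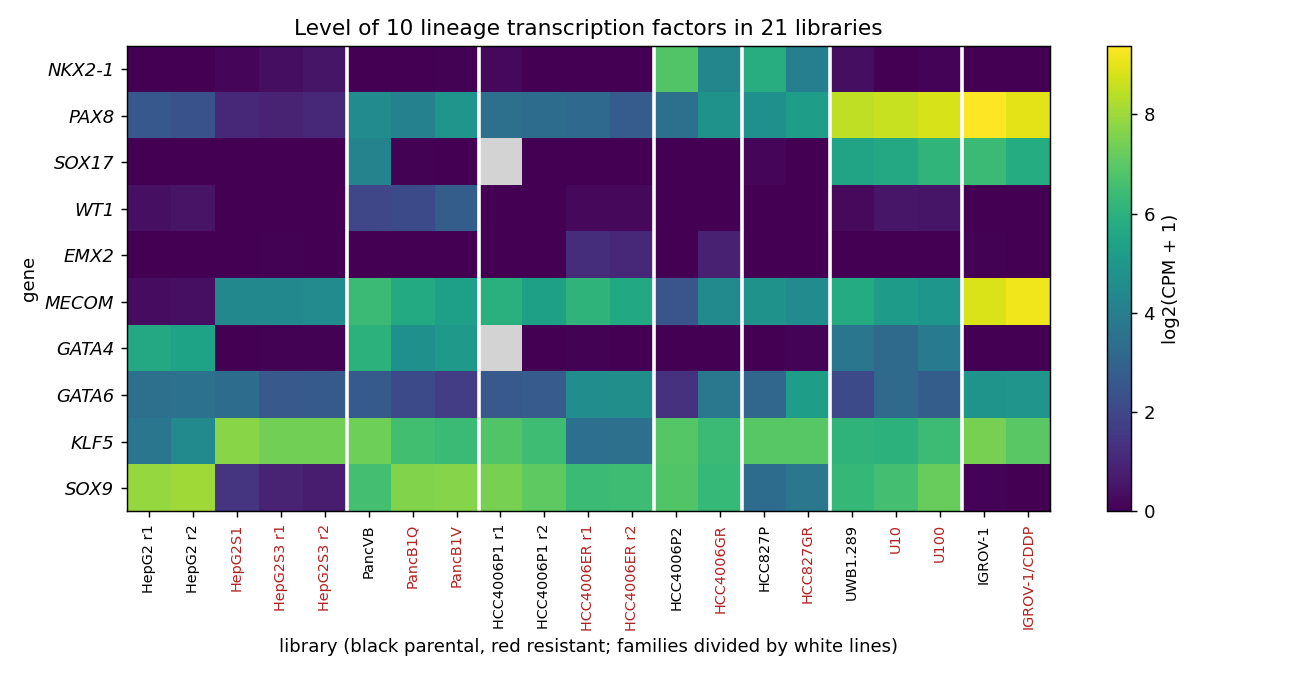
Level of the 10 genes (rows) in each of the 21 libraries (columns), as log2(CPM + 1) on a colour scale, with parental libraries named in black, resistant libraries in red and families divided by white lines. Grey cells mark GATA4 and SOX17 in HCC4006P1 replicate 1, which has no counts there. PAX8 and SOX17 are highest in the 5 ovarian libraries, and NKX2-1 is above 10 CPM in 4 lung libraries alone.

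NKX2-1 (ENSG00000136352), the homeodomain factor that switches on surfactant genes, lies on the minus strand of chromosome 14 at 36985597 to 36990354 (GRCh37). It was expressed in 2 of the 7 parental cell lines, both from lung. HCC4006P2 had 113 CPM (107 to 119) and HCC827P 56.0 CPM (52.5 to 59.6). Their resistant derivatives HCC4006GR and HCC827GR had 18.6 CPM (16.5 to 20.9) and 15.4 CPM (13.5 to 17.4). Both derivatives thus stayed above 10 CPM, at 6.06-fold and 3.64-fold lower levels, with log2 fold changes of -2.54 (95% counting interval -2.77 to -2.30) and -1.80 (-2.06 to -1.54). No cell line that expressed NKX2-1 had a replicate. The third lung parental cell line, HCC4006P1, had 3 and 0 counts and HCC4006ER 0 counts in both libraries, which allows up to 0.154 CPM, so the stocks of HCC4006 differed in this gene before any drug. Among the cell lines of other tissues, the highest level was that of HepG2S3, with 9 and 14 counts (0.281 and 0.457 CPM), against 0 counts in both HepG2 libraries, at least 8.79-fold higher when HepG2 is set to the floor of 3 counts over its libraries. That level is under 1 CPM, and the gene did not pass the count filter of the edgeR test. Without the filter it was called higher in HepG2S3 (edgeR adjusted p = 0.00848), with 0 of 2 HepG2 libraries and 2 of 2 HepG2S3 libraries holding counts. With counts in 1 group alone and under 1 CPM, this call is no support.

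The sequences upstream of NKX2-1 are shown because this gene separates cell lines of 1 tissue and even stocks of 1 cell line. RefSeq gives 2 transcript starts, and the 250 bases before each on GRCh38.p14 are printed 5′ to 3′ on the strand of the gene, with CG pairs, the sites that DNA methylation can occupy, in capitals. Window 1 lies at chr14:36520233-36520482 and window 2 at chr14:36519557-36519806, both minus strand.
NKX2-1 window 1: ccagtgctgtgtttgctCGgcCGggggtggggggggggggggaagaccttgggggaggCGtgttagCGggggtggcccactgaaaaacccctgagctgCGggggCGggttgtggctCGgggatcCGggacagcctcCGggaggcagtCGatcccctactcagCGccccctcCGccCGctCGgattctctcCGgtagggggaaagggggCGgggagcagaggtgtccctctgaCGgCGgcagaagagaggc
NKX2-1 window 2: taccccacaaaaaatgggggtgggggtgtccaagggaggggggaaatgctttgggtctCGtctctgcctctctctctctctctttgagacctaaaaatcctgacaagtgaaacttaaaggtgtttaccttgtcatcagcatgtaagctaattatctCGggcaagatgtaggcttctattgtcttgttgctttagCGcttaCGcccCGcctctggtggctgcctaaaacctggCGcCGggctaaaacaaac
Window 1 holds 18 CG pairs, a number that 36.8% of 35116 promoter windows reach, and window 2 holds 7, which 58.9% reach. DNA methylation was not analysed here.

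Some lung genes that accompany NKX2-1 in normal lung were lower in both pairs in which it was lower. Of a list of 16 lung epithelial genes, 9 were expressed in HCC4006GR, in HCC4006P2 or in both. Of these, 6 were at least 1 lower on the log2 scale in HCC4006GR and 1 was at least 1 higher, with a median log2 fold change of -2.39. Over all genes expressed in HCC4006P2, 8.05% were at least 1 lower. SLC34A2, the phosphate transporter of alveolar cells, went from 3083 to 293 CPM, NAPSA, a protease that processes surfactant protein, from 143 to 1.52 CPM, and FOXA1, a pioneer factor of foregut epithelia, from 159 to 43.0 CPM. In HCC827GR against HCC827P, 2 of 4 genes of the list that either cell line expressed were at least 1 lower, and 1 was at least 1 higher. Over all genes expressed in HCC827P, 8.97% were at least 1 lower. NAPSA went from 35.4 to 12.3 CPM and FOXA1 from 55.6 to 23.5 CPM, whereas ABCA3, a lipid transporter of lamellar bodies, went from 28.5 to 120 CPM. SCGB3A2, a secretoglobin of the airway, was not confined to the lung: it had 104 CPM in HCC827P and 174 CPM in HCC827GR, but also 102 and 128 CPM in PancB1Q and PancB1V against 9.25 CPM in PancVB. SLC34A2 was not confined to the lung either, with 139 CPM in UWB1.289, 115 CPM in U10 and 247 CPM in U100. IGROV-1 had 136 CPM and IGROV-1/CDDP 638 CPM of SLC34A2, against 8.08 CPM in HCC827P. Neither of the lung pairs compared here has replicates, so their differences were not tested.

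PAX8 (ENSG00000125618), a paired box factor of thyroid, kidney and Müllerian epithelium, lies on the minus strand of chromosome 2 at 113973574 to 114036498 (GRCh37). It was highest in the ovarian cell lines and was kept there. UWB1.289 had 357 CPM (347 to 368), U10 386 CPM and U100 452 CPM. IGROV-1 had 664 CPM (654 to 674) and IGROV-1/CDDP 515 CPM. The lowest ovarian level stood 3.28 on the log2 scale above that of the next cell line, HCC827GR with 36.0 CPM. Among the 5 ovarian cell lines no neighbours in the order of levels differed by more than the largest gap between replicates of this gene, 0.45 on the log2 scale. That gap is from HCC4006ER, at the far lower levels of 8.15 and 5.70 CPM. The ends of the ovarian range, UWB1.289 and IGROV-1, had counting intervals that do not overlap.

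Outside the ovary PAX8 was present at lower levels. PancVB, PancB1Q and PancB1V had 21.7, 16.5 and 28.4 CPM, and HCC827P 24.9 CPM. HCC4006P2 had 10.1 CPM and HCC4006GR 26.7 CPM, a log2 fold change of 1.33 (0.97 to 1.68) and the largest of PAX8 in the 10 pairs apart from the HepG2 family. HCC4006P1 had 10.1 and 9.03 CPM and HCC4006ER 8.15 and 5.70 CPM, which do not overlap, but the edgeR test did not call the difference (log2 fold change -0.43, SE 0.23, adjusted p = 0.172). Without HCC4006P1 replicate 1 it was called lower, with a log2 fold change of -0.54 and an edgeR adjusted p of 0.00777. HepG2 had 5.05 and 4.10 CPM, HepG2S1 1.12 CPM and HepG2S3 0.875 and 1.04 CPM, so that all resistant libraries were under both parental ones. PAX8 fell by 2.57 on the log2 scale in HepG2S3 (SE 0.28, edgeR adjusted p = 0.00104), a test in which 63.5% of 16929 genes were called and 32.1% were called lower.

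The promoter window of PAX8 is shown as that of the most ovary-weighted gene of the set. It lies at chr2:113278922-113279171 on the minus strand of GRCh38.p14, with CG pairs in capitals.
PAX8: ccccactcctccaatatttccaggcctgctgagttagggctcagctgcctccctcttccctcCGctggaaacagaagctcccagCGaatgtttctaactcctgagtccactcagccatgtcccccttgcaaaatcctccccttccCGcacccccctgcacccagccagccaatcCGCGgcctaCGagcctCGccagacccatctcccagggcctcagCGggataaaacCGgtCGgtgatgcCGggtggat
It holds 11 CG pairs, the median of all windows.

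PAX8 shares most of its locus with the antisense gene PAX8-AS1, which overlaps it by 60585 bases on the opposite strand. The kit marks the strand, but the strand setting used for counting was not given in the sources used here, so reads of the gene and of its partner might not have been told apart. The partner did not follow the same order of cell lines. PAX8-AS1 was highest in PancB1V (160 CPM), HCC827GR (120 CPM) and PancB1Q (118 CPM), had 30.7 CPM in UWB1.289, where PAX8 was at 357 CPM, and 0.519 and 0.373 CPM in HepG2. Within pairs it moved beside PAX8 in HCC4006GR (from 36.2 to 90.1 CPM), fell by 0.67 in HCC4006ER (SE 0.19, edgeR adjusted p = 0.0314), and rose in HepG2S3 to 2.41 and 2.68 CPM while PAX8 fell there (log2 fold change 2.18, SE 0.32, edgeR adjusted p = 0.00273). The antisense partners of NKX2-1, WT1, EMX2, MECOM and SOX9 stayed under 5 CPM in every cell line, with WT1-AS in PancB1V the highest at 4.11 CPM.

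**Figure D2:**
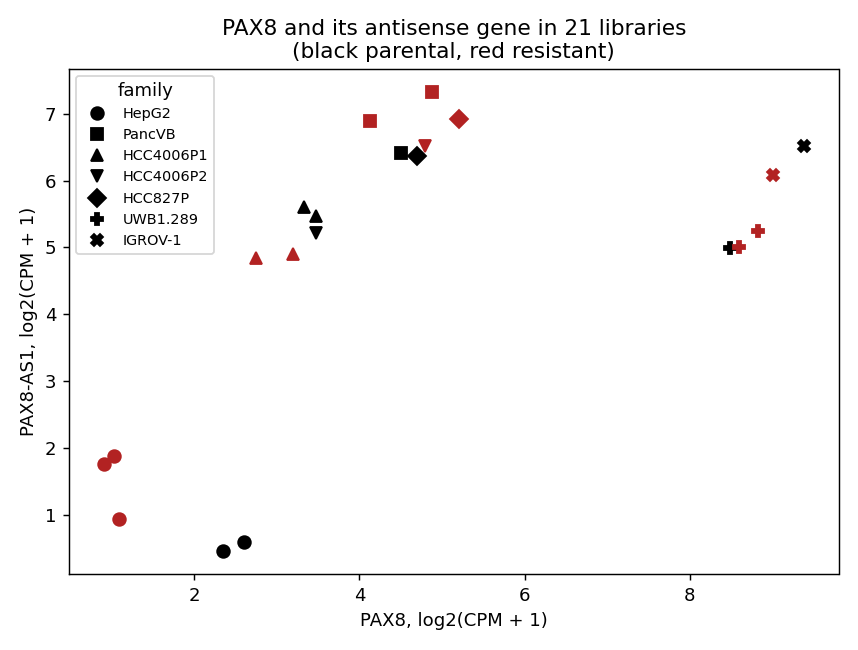
PAX8 (horizontal) against its antisense gene PAX8-AS1 (vertical), both as log2(CPM + 1), with 1 mark per library, black for parental and red for resistant, and the shape giving the family. The ovarian libraries lie far to the right at PAX8-AS1 levels within the range of the lung and pancreatic libraries, and the HepG2 family lies at the lower left.

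SOX17 (ENSG00000164736), an endoderm and Müllerian factor, lies on chromosome 8 at 55370495 to 55373452 (GRCh37), plus strand, and showed the sharpest loss among the pancreatic cell lines. In the ovarian cell lines it had 503 counts in UWB1.289 (43.3 CPM), 513 in U10 (50.02 CPM) and 898 in U100 (68.5 CPM). IGROV-1 and IGROV-1/CDDP had 83.0 and 55.3 CPM, so every ovarian resistant cell line kept it within 1 on the log2 scale. PancVB had 17.4 CPM (377 counts, 15.7 to 19.2 CPM). PancB1Q had 1 count (log2 fold change -4.15, counting interval -4.33 to -3.80) and PancB1V 0 counts, a level at least 144-fold lower with the floor of 3 counts. The liver and lung cell lines had 0 counts, with the exception of HCC827P with 2. None of the cell lines that expressed SOX17 had a replicate, and both pancreatic comparisons rest on the same PancVB library.

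MECOM (ENSG00000085276), a zinc finger factor of stem cells that is amplified in some ovarian carcinomas, lies on the minus strand of chromosome 3 at 168801287 to 169381563 (GRCh37). It was expressed in 5 of the 7 parental and in all 10 resistant cell lines. IGROV-1 with 455 CPM and IGROV-1/CDDP with 582 CPM stood above all others, of which the next, PancVB, had 83.4 CPM. UWB1.289 had 53.3 CPM, U10 34.7 CPM and U100 29.1 CPM. The second ovarian family was therefore within the range of the lung and pancreatic cell lines.

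HepG2 and HCC4006P2 were the parental cell lines with little MECOM, and it was higher in each of their derivatives. HepG2 had 0.246 and 0.316 CPM, HepG2S1 19.998 CPM and HepG2S3 19.6 and 21.7 CPM, and the groups did not overlap. MECOM rose by 5.87 on the log2 scale of the edgeR fit in HepG2S3 (SE 0.26, adjusted p = 6.7e-05), where 31.4% of all genes were called higher. With 9 and 11 counts in HepG2, it passed the count filter through HepG2S3 alone. HCC4006P2 had 4.56 CPM and HCC4006GR 21.2 CPM, a log2 fold change of 2.00 (1.55 to 2.44). By contrast, the level was lower in PancB1Q (52.1 CPM) and PancB1V (37.7 CPM) than in PancVB. HCC4006P1 with 60.6 and 38.8 CPM overlapped HCC4006ER with 68.4 and 51.0 CPM, and the edgeR test called no difference (log2 fold change 0.33, SE 0.18, adjusted p = 0.178). Without HCC4006P1 replicate 1 it was called, with a log2 fold change of 0.46 and an edgeR adjusted p of 0.000543.

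WT1 and EMX2 did not reach 10 CPM in any cell line. WT1 (ENSG00000184937), a zinc finger factor of mesothelium, gonad and kidney on chromosome 11 at 32409321 to 32457110 (GRCh37), was highest in the pancreatic family, with 3.04 CPM in PancVB, 3.33 CPM in PancB1Q and 5.84 CPM in PancB1V. The ovarian cell lines had at most 0.488 CPM (5 counts, U10), and IGROV-1 and IGROV-1/CDDP had 0 counts, which in the deeper of both allows up to 0.109 CPM. HepG2 had 11 and 14 counts and both HepG2S3 libraries 0, at least 7.33-fold lower, a difference the edgeR test called (adjusted p = 0.00403) on a gene that passed the count filter through HepG2 alone. EMX2 (ENSG00000170370), a homeobox factor of the urogenital tract and forebrain on chromosome 10 at 119301956 to 119309057 (GRCh37), had 26 and 21 counts in HCC4006ER (1.32 and 1.08 CPM) and 12 in HCC4006GR (0.794 CPM). Both HCC4006 parental stocks had 0 counts of it, so the level was at least 15.2-fold higher in HCC4006ER and at least 3.60-fold higher in HCC4006GR. The edgeR test called EMX2 higher in HCC4006ER (adjusted p = 0.00204), again for a gene that passed the filter through 1 group. The other 15 cell lines had at most 1 count of EMX2 in any library. The fitted fold changes of WT1 and EMX2 depend on the prior count and are not given.

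The other Müllerian genes did not behave as a block. Of 12 listed ovarian and Müllerian genes 10 were matched, and UWB1.289 and IGROV-1 differed in most of those expressed. MUC16, a mucin shed by ovarian carcinomas, had 103 CPM in UWB1.289 and 0.473 CPM in IGROV-1. CDH6, a cadherin of kidney and Müllerian epithelium, had 273 CPM in UWB1.289 and 0.327 CPM in IGROV-1, and MSLN, the mesothelial surface protein mesothelin, 61.3 and 0.473 CPM. CLDN3, a tight junction claudin, was expressed in both families, with 137 and 45.04 CPM. In HepG2S3 the edgeR test called 5 of 6 tested genes of this list higher, MSLN and MUC16 among them, and 1 lower, with a median log2 fold change of 2.70, beside 31.4% higher, 32.1% lower and a median of -0.01 over all genes tested. In HCC4006ER it called 2 of 5 higher, CDH6 among them, and 2 lower, with a median of 0.49, beside 22.5%, 23.6% and 0.02. MUC16, FOLR1, ESR1 and KLHL14 in HepG2S3, and WFDC2, ESR1 and PGR in HCC4006ER, passed the count filter through 1 group alone. Their calls followed from the filter, so the tallies and medians of this list are no support. In the ovarian pairs, which have no replicates, 2 of 6 listed genes expressed on either side were at least 1 lower in U10. It was 1 of 6 in U100 and 1 of 4 in IGROV-1/CDDP, and 1 was at least 1 higher in each pair. Over all genes expressed in the parental cell line, 4.52%, 1.96% and 6.93% were lower. Of those expressed in the resistant cell line, 6.28%, 5.38% and 5.35% were higher.

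GATA4 (ENSG00000136574), which acts in liver, heart, pancreas and gonad, lies on chromosome 8 at 11534468 to 11617511 (GRCh37), plus strand. It was expressed in HepG2 (49.7 and 42.6 CPM), PancVB (64.5 CPM) and UWB1.289 (11.7 CPM) and in no lung cell line. HepG2S1 had 0 counts, at least 152-fold lower than HepG2. HepG2S3 had 1 count in each library. The log2 fold change of HepG2S3 was -5.51 (counting interval -5.60 to -5.35). The edgeR test called GATA4 lower there (adjusted p = 3.0e-05), but the gene passed the count filter through HepG2 alone and its fitted fold change depends on the prior count, so that fold is not given. Thus both sorafenib-resistant cell lines were under the floor of 3 counts per library. The 5 liver markers fell with it in the same test, and their part in the result was not tested. In the pancreatic family the level was lower but the gene remained expressed, with 24.9 CPM in PancB1Q (log2 fold change -1.34, -1.51 to -1.16) and 31.8 CPM in PancB1V (-0.996, -1.17 to -0.82). U10 with 8.39 CPM and U100 with 13.2 CPM had intervals of the change that include 0.

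GATA6 (ENSG00000141448), the paralog of GATA4 that is needed for pancreas and lung branching, lies on chromosome 18 at 19749550 to 19782491 (GRCh37), plus strand. It was detected in all 21 libraries, from 1.54 to 36.6 CPM, and was higher in all 3 resistant lung cell lines than in their parental cell lines. HCC4006P1 had 5.08 and 5.38 CPM and HCC4006ER 23.0 and 23.6 CPM, groups that lie well apart. GATA6 rose by 2.18 on the log2 scale in HCC4006ER (SE 0.20, edgeR adjusted p = 0.000427), in a test that called 46.1% of 13743 genes and 22.5% higher. HCC4006P2 had 1.54 CPM and HCC4006GR 12.6 CPM, a log2 fold change of 2.42 (1.83 to 2.95). HCC827P had 7.56 CPM and HCC827GR 36.6 CPM, a log2 fold change of 2.14 (1.80 to 2.47). Of 11703 genes expressed in some lung cell line, 104 (0.889%) were at least 1 higher in all 3 lung pairs, of which the gefitinib pairs have no replicates.

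In the other tissues GATA6 moved less or the other way. HepG2 had 10.1 and 10.4 CPM, HepG2S1 8.83 CPM and HepG2S3 5.19 and 5.29 CPM. It fell by 1.28 on the log2 scale in HepG2S3 (SE 0.19, edgeR adjusted p = 0.0026). PancVB had 5.29 CPM, PancB1Q 3.26 CPM and PancB1V 2.30 CPM. UWB1.289 had 3.27 CPM, U10 8.48 CPM (log2 fold change 1.15, 0.52 to 1.76) and U100 5.80 CPM (0.67, with a counting interval that starts at 0.04), all under 10 CPM. IGROV-1 with 28.2 CPM and IGROV-1/CDDP with 28.7 CPM differed by 0.02 (-0.18 to 0.22).

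The promoter window of GATA6 is shown because the gene was called in opposite directions in the HepG2S3 and HCC4006ER tests. It lies at chr18:22169339-22169588 on the plus strand of GRCh38.p14, with CG pairs in capitals.
GATA6: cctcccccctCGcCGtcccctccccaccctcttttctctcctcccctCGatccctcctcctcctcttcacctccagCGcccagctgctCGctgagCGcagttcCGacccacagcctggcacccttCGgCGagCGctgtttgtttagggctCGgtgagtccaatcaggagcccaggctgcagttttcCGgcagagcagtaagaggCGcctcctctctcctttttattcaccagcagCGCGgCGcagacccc
It holds 16 CG pairs, which 41.0% of windows reach.

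Of the pancreas and foregut endoderm factors, 18 of 19 listed genes were matched. In the HepG2 family 10 of 11 genes of this list that either cell line of a pair expressed were at least 1 lower in HepG2S1 and in HepG2S3. The shares over all genes, counted only on those expressed in HepG2, were 20.3% and 18.9%. The edgeR test of HepG2S3 called 12 of 15 lower and 1 higher, with a median of -3.81, beside 32.1%, 31.4% and -0.01 over all genes tested. PROX1, with 0.192 CPM in HepG2S3, passed the count filter through HepG2 alone. Its call followed from the filter, so this tally and its median are no support. HNF4A, a nuclear receptor of hepatocytes, had 218 CPM in HepG2, 0.812 CPM in HepG2S1 and 0.431 CPM in HepG2S3, and PROX1, a homeobox factor of hepatoblasts, 207, 0 and 0.192 CPM. PDX1 and PTF1A, which define the pancreatic bud, stayed under 3 CPM in every cell line, PancVB included, and are named here after their values were seen. NR5A2, a nuclear receptor of acinar cells and gut, had 17.6 CPM in PancVB, 1.61 CPM in PancB1Q and 1.61 CPM in PancB1V, but went from 40.3 CPM in HCC827P to 167 CPM in HCC827GR. HES1, a target of Notch signalling, was highest in HCC4006P1 (256 CPM) and HCC4006ER (202 CPM). In HCC4006ER 2 of 11 tested genes of the list were called higher and 4 lower, with a median of -0.09, beside 22.5%, 23.6% and 0.02.

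KLF5 (ENSG00000102554), which sustains proliferating epithelium of gut, lung and pancreas, lies on chromosome 13 at 73629114 to 73651679 (GRCh37), plus strand. It was the only gene of the 10 expressed in all 7 parental cell lines. It also is among the epithelial genes of the signature by which the study judged epithelial-to-mesenchymal transition. A change of KLF5 is therefore no separate evidence on that transition. Outside HepG2, parental levels ran from 68.0 CPM in UWB1.289 to 175 CPM in IGROV-1. HCC827P and HCC827GR both had 122 CPM. HCC4006P2 had 118 CPM and HCC4006GR 83.4 CPM, PancVB had 157 CPM against 92.6 and 82.3 CPM in PancB1Q and PancB1V, and U10 and U100 had 64.5 and 84.5 CPM, so these cell lines kept the gene.

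The HepG2 and HCC4006P1 families moved KLF5 in opposite directions. The study classed HepG2S1, HepG2S3 and HCC4006ER alike as having undergone the full transition. HepG2 had 11.9 and 20.9 CPM, HepG2S1 207 CPM and HepG2S3 167 CPM in both libraries. KLF5 rose by 3.04 on the log2 scale in HepG2S3 (SE 0.29, edgeR adjusted p = 0.00062). HCC4006P1 had 114 and 88.0 CPM and HCC4006ER 9.61 and 10.1 CPM. KLF5 fell by 3.31 there (SE 0.13, edgeR adjusted p = 2.2e-05), in a test that called 23.6% of genes lower. HCC4006ER thereby was the only cell line under 10 CPM on the mean of its libraries. The summed level of the 4 duct markers went from 3800 to 157 CPM in the same pair, KRT19 from 1723 to 2.11 CPM, and their part in the result was not tested.

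Both promoter windows of KLF5 are shown because this gene was called in opposite directions by over 3 on the log2 scale. Window 1 lies at chr13:73054726-73054975 and window 2 at chr13:73058755-73059004, plus strand of GRCh38.p14, with CG pairs in capitals.
KLF5 window 1: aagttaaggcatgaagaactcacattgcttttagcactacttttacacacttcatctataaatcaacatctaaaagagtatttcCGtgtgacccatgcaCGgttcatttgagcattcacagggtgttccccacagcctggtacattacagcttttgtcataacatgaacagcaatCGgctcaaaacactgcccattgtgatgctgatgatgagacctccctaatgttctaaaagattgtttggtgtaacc
KLF5 window 2: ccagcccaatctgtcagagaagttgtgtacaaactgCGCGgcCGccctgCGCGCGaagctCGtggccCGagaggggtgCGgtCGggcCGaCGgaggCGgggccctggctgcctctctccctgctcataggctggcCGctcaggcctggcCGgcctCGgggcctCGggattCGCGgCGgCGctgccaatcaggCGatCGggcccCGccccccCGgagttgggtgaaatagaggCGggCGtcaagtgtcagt
They differ in composition, with 3 CG pairs in window 1, which 77.1% of windows reach, and 27 in window 2, which 17.7% reach. The windows of the 7 genes with an entry (NKX2-1, PAX8, WT1, EMX2, MECOM, GATA6 and KLF5) were searched on both strands for 4 motifs. AGATAA, a form of the GATA motif, was found in NKX2-1 window 2 and in 1 window of MECOM, and in 9.17% of all 35116 windows. A second form, TGATAA, which shares its last 5 letters with the first, was found in another window of MECOM and in 6.66% of all windows. TATAAA, the sequence of a TATA box, was found in KLF5 window 1, in its part farther from the transcript start, and in 10.7% of all windows. The E-box CACCTG was found in no window of these genes and in 17.5% of all windows. None of these matches was tested for use.

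**Figure D3:**
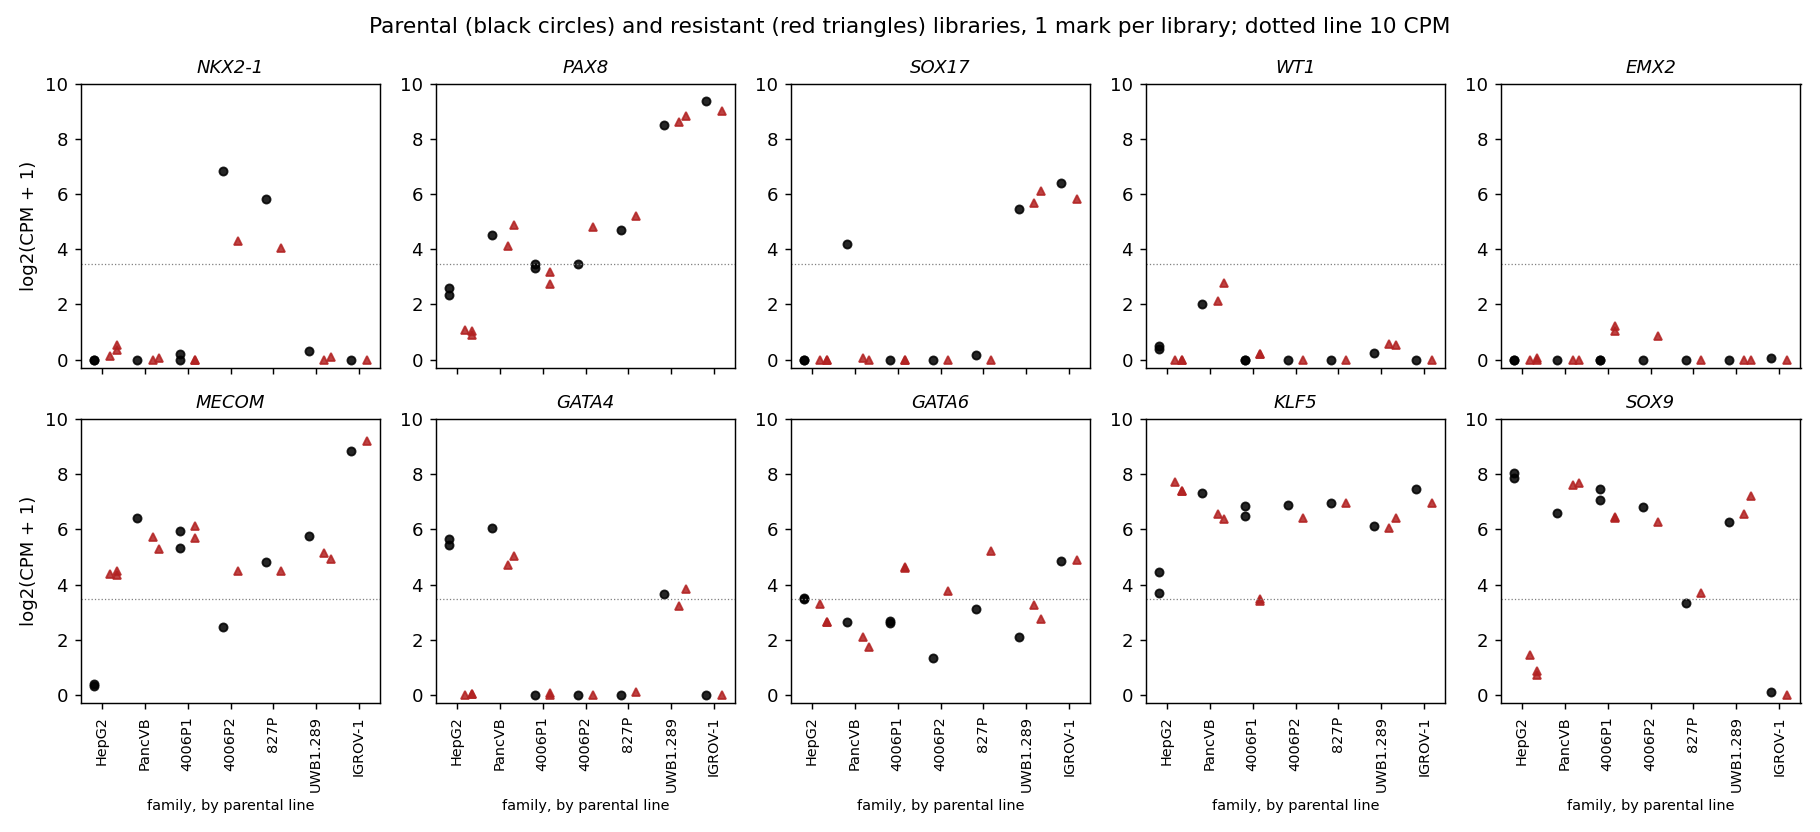
Level of each of the 10 genes, as log2(CPM + 1) on the vertical axis, in the 7 families named by their parental cell line, with black circles for parental and red triangles for resistant libraries, 1 mark per library and a dotted line at 10 CPM. KLF5 lies above the line in every parental library, GATA6 is higher in the resistant than in the parental libraries of the 3 lung families, and SOX9 and GATA4 drop from above the line to near 0 in the HepG2 family.

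SOX9 (ENSG00000125398), a factor of bile and pancreatic ducts, cartilage and distal lung, lies on chromosome 17 at 70117161 to 70122557 (GRCh37), plus strand. It was expressed in 5 of 7 parental cell lines and had its highest level in HepG2, with 234 and 261 CPM. HepG2S1 had 1.73 CPM and HepG2S3 0.844 and 0.653 CPM, 144-fold and 331-fold lower. SOX9 fell by 8.67 on the log2 scale of the edgeR fit in HepG2S3 (SE 0.21, adjusted p = 2.6e-05). In the pancreatic family it was higher in the resistant cell lines, from 94.3 CPM in PancVB to 194 CPM in PancB1Q (log2 fold change 1.03, 0.93 to 1.13) and 205 CPM in PancB1V (1.12, 1.01 to 1.22). U100 was also higher than UWB1.289, with 146 against 75.0 CPM, and U10 had 93.2 CPM.

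Among the lung cell lines SOX9 stayed within 1 on the log2 scale in each pair. HCC4006P1 had 174 and 132 CPM and HCC4006ER 84.0 and 86.7 CPM, which do not overlap. It fell by 0.79 (SE 0.11, edgeR adjusted p = 0.00216), and without HCC4006ER replicate 1 the edgeR adjusted p was 0.0538. HCC4006P2 had 112 CPM and HCC4006GR 76.7 CPM, whereas HCC827P and HCC827GR had 9.06 and 12.1 CPM. IGROV-1 and IGROV-1/CDDP, the cell lines with the highest MECOM, had 2 and 0 counts of SOX9.

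Close paralogs of the 10 genes gave a mixed picture. In HepG2S3 the edgeR test called 8 of 11 tested paralogs lower and 2 higher, with a median of -4.41, beside 32.1%, 31.4% and -0.01 over all genes. Only 3 paralogs reached 10 CPM in HepG2 or HepG2S3. Fitted fold changes such as -9.35 for NKX2-5 and -9.23 for PRDM16 depend on the prior count. Such genes pass the count filter through 1 group alone, so this tally and its median are no support. In HCC4006ER it called 2 of 8 lower and 4 higher, with a median of 1.19, beside 23.6%, 22.5% and 0.02. KLF6 was higher in HCC4006GR than in HCC4006P2 (412 against 79.7 CPM) and in HCC827GR than in HCC827P (267 against 70.5 CPM). It fell by 1.86 on the log2 scale in HepG2S3 (SE 0.23, edgeR adjusted p = 0.00149), where KLF5 rose. KLF4 rose by 2.30 in HepG2S3 (SE 0.29, edgeR adjusted p = 0.00158). GATA3 fell by 2.54 in HCC4006ER (SE 0.20, edgeR adjusted p = 0.000241), from 41.1 to 6.68 CPM, where GATA6 rose, while GATA2 was not called in either test. SOX8 rose by 3.59 in HCC4006ER (SE 0.23, edgeR adjusted p = 0.000101), from 2.65 to 31.1 CPM.

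Counted over all pairs, the parental cell line expressed the gene in 48 of the 100 combinations of gene and pair. The resistant cell line kept it, at 10 CPM or more and within 1 on the log2 scale, in 29 of the 48 (60.4%), beside 80.8% over all genes. It was at least 1 lower in 11 (22.9%), beside 9.68% over all genes. Of 45 combinations with the gene expressed in the resistant cell line, 11 (24.4%) were at least 1 higher than in the parental cell line, beside 12.1%. Combinations within a family share the parental libraries and the genes are few, so these shares are descriptions.

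In HepG2S1 and in HepG2S3 the same 2 of 4 expressed genes were at least 1 lower, GATA4 and SOX9, beside 20.3% and 18.9% of all genes. MECOM and KLF5 were at least 1 higher in both, beside 29.0% and 31.2% of all genes, and 23.3% of the genes expressed in this family were higher and 14.5% lower in both derivatives. In PancB1Q SOX17 and GATA4 were lower, 2 of 6 expressed genes beside 8.06%, and in PancB1V SOX17 and MECOM, 2 of 6 beside 7.08%. SOX9 was higher in each, beside 6.4% and 8.55%. In HCC4006ER KLF5 was lower, 1 of 3 expressed genes beside 13.0%, and GATA6 higher, beside 11.0%. In HCC4006GR NKX2-1 was lower, 1 of 4 beside 8.05%, and PAX8, MECOM and GATA6 were higher, beside 7.93%. In HCC827GR NKX2-1 was lower, 1 of 4 beside 8.97%, and GATA6 higher, beside 10.5%. In the ovarian cell lines 0 of 6 genes were at least 1 lower in U10 (beside 4.52%), 0 of 6 in U100 (beside 1.96%) and 0 of 5 in IGROV-1/CDDP (beside 6.93%), counts that do not set the 10 genes apart from all genes. By the level of 10 CPM, U10 kept 5 of 6, with GATA4 at 8.39 CPM. None was higher at 10 CPM or more there, beside 6.28%, 5.38% and 5.35% of all genes.

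The HepG2 family weighed on these shares. Without it, 29 of 40 combinations (72.5%) were kept beside 85.5% of all genes, 7 (17.5%) were lower beside 7.31%, and 7 of 41 (17.1%) were higher beside 7.67%. Without the HepG2 and the HCC4006P1 families, 6 of 37 (16.2%) were lower beside 6.50%, and 6 of 38 (15.8%) were higher beside 7.18%.

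**Figure D4:**
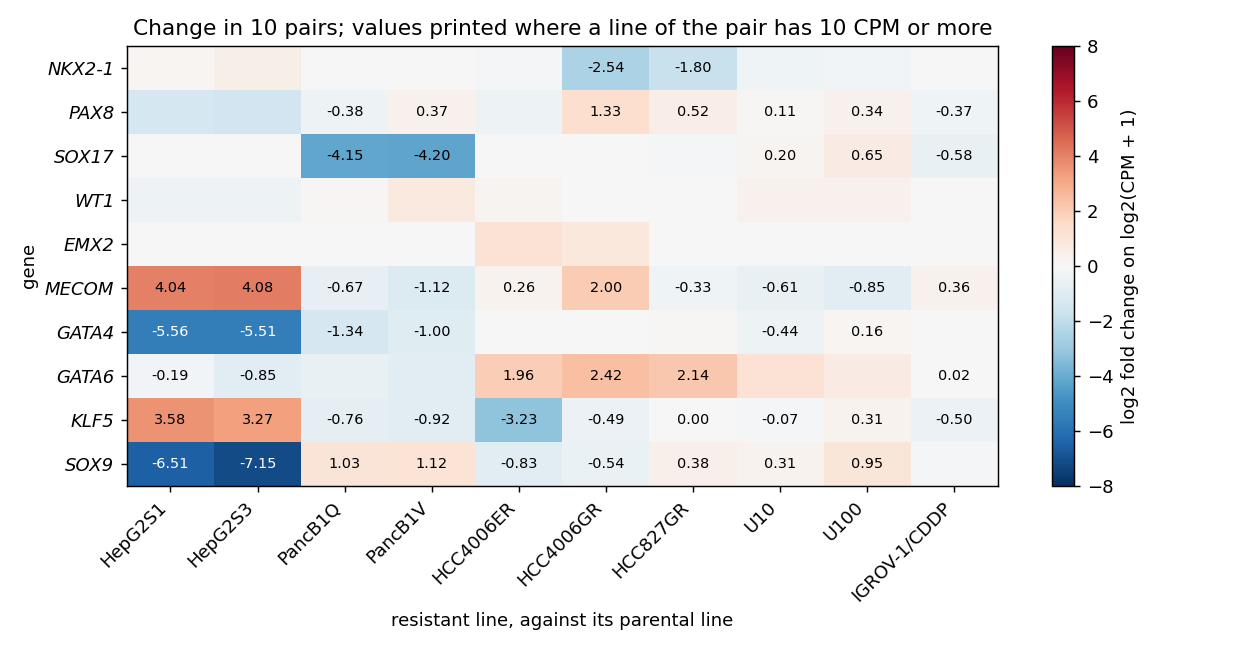
Log2 fold change on log2(CPM + 1) of each resistant cell line (columns) against its parental cell line for the 10 genes (rows), red for higher and blue for lower, with the value printed where either cell line had 10 CPM or more. The values farthest from 0 are those of SOX9 (-7.15 and -6.51) and GATA4 in HepG2S3 and HepG2S1, followed by SOX17 in PancB1V and PancB1Q (-4.20 and -4.15), and the ovarian columns hold no printed value beyond 1.

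**Figure D5:**
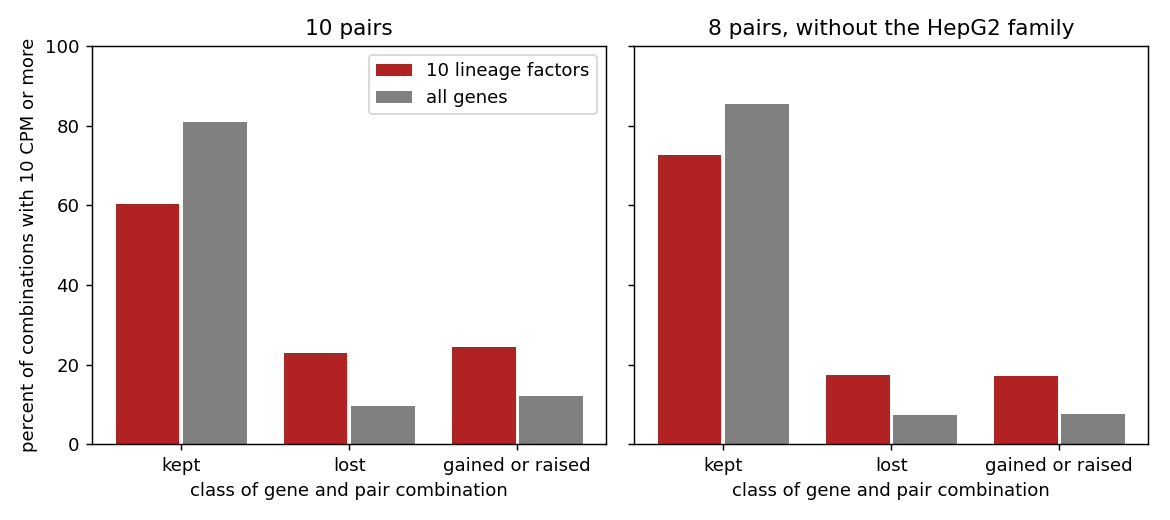
Share (percent) of combinations of gene and pair that were kept, lost (at least 1 lower on the log2 scale) or gained or raised (at least 1 higher), for the 10 genes in red and all genes in grey, over all 10 pairs (left) and over the 8 pairs without the HepG2 family (right). The kept share of the 10 genes rises from 60.4% to 72.5% without that family, beside 80.8% and 85.5% for all genes.

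In the replicated comparisons, 7 of the 10 genes passed the count filter in HepG2S3 against HepG2, and of these 2 were called higher and 5 lower, GATA6 and PAX8 by the smallest amounts. In HCC4006ER against HCC4006P1, 6 passed, 2 were called higher and 2 lower. The remaining genes had too few counts, and WT1, GATA4 and MECOM in the first test and EMX2 in the second passed through 1 group alone, so that their calls followed from the filter and the tallies are no support. Over all genes, 31.4% were called higher and 32.1% lower in the first test, and 22.5% and 23.6% in the second. Over 7 resistant against 7 parental profiles, blocked by family, the edgeR test called 0 of 15847 genes (0.0%), with 722 at an unadjusted p under 0.05, and DESeq2 called 106. PAX8, MECOM, GATA6, KLF5 and SOX9 were tested there and neither tool called any of them. The largest difference among them was that of GATA6, 0.93 on the log2 scale (SE 0.59, edgeR adjusted p = 0.984). The list medians in that fit were -0.28 for the lung epithelial genes, 0.00 for the ovarian genes, -0.17 for the foregut factors and 0.29 for the paralogs, beside 0.01 for all genes, with 0 genes called in each. Of the lung epithelial genes, 2 of 6 tested were called higher and 3 lower in HepG2S3 (median -1.79), beside 31.4% and 32.1% of all genes, and 0 of 6 higher and 4 lower in HCC4006ER (median -1.80), beside 22.5% and 23.6%. Of the marker lists, 5 of 5 liver markers, 1 of 1 tested lung marker and 1 of 3 duct markers were called lower in HepG2S3, and 3 of 3 ovary markers and 1 duct marker higher. In HCC4006ER 1 of 1 tested liver marker, 1 of 2 ovary markers and 2 of 2 duct markers were called lower, 0 were called higher, and 0 lung markers were tested. Listed genes such as MUC16, FOLR1, TTR and SLC34A2 in HepG2S3 also passed the count filter through 1 group alone. The tallies of the lists are therefore no support either.

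Before treatment the 10 genes were unevenly spread. Of the 8 genes that some parental cell line expressed, 5 were under 1 CPM in another parental cell line (NKX2-1, SOX17, MECOM, GATA4 and SOX9), beside 19.9% of 12479 genes. Over the 17 cell lines, the genes whose log2(CPM + 1) followed NKX2-1 most closely among 12393 protein-coding genes were MUC5B, an airway mucin (Pearson r = 0.98), PIGR, the receptor that carries immunoglobulin across epithelia (0.96), and LPCAT1, an enzyme of surfactant lipid synthesis (0.94). For PAX8 they were KSR2 (0.92), ZNF564 (0.91) and CLDN16 (0.91), and for SOX17 FGF18 (0.92), CLDN16 (0.92) and PRKCI (0.91). GATA4 was followed by COCH (0.91), HHEX, a homeobox factor of liver and pancreas (0.90), and CCND2 (0.90), and MECOM by ZC3H10 (0.90), ZNF557 (0.87) and AHNAK (0.87). SOX9 was followed by STAP2 (0.93), ACSS1 (0.92) and FILIP1L (0.91), KLF5 by NSRP1 (0.83), DTL (0.81) and NBEAL2 (0.78), and GATA6 by CTSA (0.82), ARID5B (0.82) and C1R (0.82). The 17 cell lines form 7 families that share a parent, and the HCC4006P1 and HCC4006P2 families come from 1 cell line. Depth also differs between libraries, so these coefficients describe the cell lines and carry no test.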

How the data were processed

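mRNA was measured in 21 libraries of 17 cell lines, made per the labels with a stranded mRNA kit, while the study's methods also name a 3′ end kit. The authors deposited raw counts of reads per gene for each library, and the submitters' processing notes name hg19, Bowtie, TopHat, SAMtools and HTSeq, to which the methods add STAR. The strand setting of counting was not given in the sources used here. Counts that HTSeq put on no gene (10.6% to 22.3% per library) were left out. Of 53515 Ensembl identifiers, 45100 (84.3%) matched GENCODE on GRCh37.

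Cell lines were grouped by the labels, resistant cell lines were paired with their parental cell line by name and reference label, and the tissue of origin is from the study's methods. Both HepG2 libraries carry the same replicate number in their titles, and so do both HepG2S3 libraries, so the letters A and B of the labels number them.

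CPM were computed on the total of each library on genes and averaged over the replicates of a cell line. Fold changes used log2(CPM + 1), and the floor was 3 counts. HepG2S3 against HepG2, HCC4006ER against HCC4006P1, their difference, and 7 resistant against 7 parental profiles (summed per family, HCC4006P1 from replicate 2 alone, blocked by family) were fitted with the quasi-likelihood test of edgeR 4.0.16 (TMM, filterByExpr, all genes, Benjamini-Hochberg adjusted p under 0.05), and the tests were checked on simulated counts. Genes without counts in HCC4006P1 replicate 1 from the break on were left out of the second fit. Alternatives used DESeq2 1.42.0 with its size factors, no filter, total counts, the replicate number as a block, other pseudocounts and thresholds, and each library left out in turn. No replicate library was taken as a duplicate of the other, since their counts differed beyond sampling noise (chi-square over degrees of freedom 5.85 to 98.6). Named besides the 10 genes are their antisense partners, the 5 genes of each list with the highest level, and the 3 protein-coding genes most correlated with each gene over the cell lines. The 10 genes and all lists were chosen with earlier results of these data known. Promoter windows, of 250 bases, come from RefSeq on GRCh38.p14 and were found for 7 of the 10 genes. R 4.3.3, limma 3.58.1, Python 3.11.15, numpy 2.4.6, pandas 2.3.3, scipy 1.17.1 and matplotlib 3.10.9 were used.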

Additional observations from a re-analysis of the deposited data

Results flagged for a closer look

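The response in HepG2S3 was set against that in HCC4006ER by a test of the difference itself among 15800 genes with edgeR. Of the 10 genes, only KLF5, GATA6, SOX9, MECOM, PAX8 and EMX2 were tested, and all but EMX2 were called. The share of all 15800 genes called was not recorded, so these calls do not set the 10 genes apart. The log2 fold change of HepG2S3 against HepG2 minus that of HCC4006ER against HCC4006P1 was 6.37 for KLF5 (edgeR adjusted p = 2.0e-06) and -3.43 for GATA6 (edgeR adjusted p = 2.0e-05), and for both the fold changes had opposite signs and were called in each comparison. It was -7.86 for SOX9 (edgeR adjusted p = 1.0e-07), which fell in both. For MECOM it was 5.56 (edgeR adjusted p = 2.8e-06) and for PAX8 -2.11 (edgeR adjusted p = 0.00153), of which neither was called in HCC4006ER. The MECOM difference is mostly its rise in HepG2S3 (5.87, against 0.33 in HCC4006ER). In the test of HepG2S3 against HepG2, MECOM passed the count filter through HepG2S3 alone, so its difference is no added support. For EMX2, at 0 counts in both HCC4006P1 libraries, the difference was not called (edgeR adjusted p = 1.0). Drug, tissue and parental cell line differ together between these comparisons and cannot be told apart.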

How the results depend on the processing

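Of 173 edgeR or DESeq2 results of single genes among the 10 under other settings, 169 kept direction and side of the threshold, 3 passed it newly and 1 no longer did. The 4 were in HCC4006ER, namely PAX8 without HCC4006P1 replicate 1 (log2 fold change -0.54), MECOM without that library (0.46) or with the replicate number as a block (0.33, edgeR adjusted p = 0.0352), and SOX9 without HCC4006ER replicate 1 (-0.75). In HepG2S3 without either HepG2 library, NKX2-1 was newly called higher and WT1 was not tested. NKX2-1, with 0 counts in HepG2, passed the filter there through HepG2S3 alone, so its call followed from the filter and is no support. No fold change of a gene in a pair reversed in 398 recomputed values, and 60 moved by more than the replicate spread. Over all genes, HCC4006ER had 3417 calls (1673 higher, 1744 lower) with the stretch lacking counts included, against 6336 without it. With each library left out, calls ran from 3638, without HCC4006ER replicate 1, to 8756, with 1786 to 4347 higher and 1852 to 4421 lower, where a lone library is assumed to vary like the other groups. DESeq2 called 106 genes (85 higher, 21 lower) over 7 families, where edgeR called 0. With the HCC4006 stocks summed to 1 pair, edgeR called 0 of 16348 genes. With total counts in place of TMM, HepG2S3 had 6761 genes higher and 4305 lower (5308 and 5436 with TMM), and HCC4006ER 3521 and 2787 (3099 and 3237). Leaving out families was chosen after seeing the data: without HepG2, 7 combinations were at least 1 lower and 7 higher, and without HepG2 and HCC4006P1, 6 and 6, against 11 and 11. Under the other alternatives 27 to 34 combinations were kept, 9 to 12 lower and 9 to 12 higher. With the replicate number as a block, HepG2S3 had 10561 and HCC4006ER 7724 calls, and no other call among the 10 genes changed. Libraries of the same number correlated by 0.0109 and 0.166 in their deviations, and nothing states a shared batch, so the numbers were not taken as pairing. Depth limits WT1, EMX2 and the low side of SOX17 and GATA4, where 3 counts came to up to 0.305 CPM.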
